A study of Homo sapiens with 3 samples.

Results

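The Eph, ephrin, semaphorin and plexin guidance genes were measured in the human melanoma line SK-Mel-28, with and without a hairpin that targets MTf (melanotransferrin, encoded by MELTF). Every probe set that the platform annotation gives to 1 of 36 named guidance genes was taken, whatever its values. The 36 genes themselves were chosen with earlier results of these data known. This gave 95 probe sets of 35 genes, out of 54613 non-control probe sets and 19775 annotated genes on the array. Expression of EPHB2, the remaining gene, was not analysed here. A further probe set is annotated to SEMA3B together with another gene and was left out. Expression was measured on 3 Affymetrix Human Genome U133 Plus 2.0 arrays. The control, 1 array, held RNA of cells stably transfected with a scrambled hairpin in the vector pSilencer 3.1-H1 neo. The other 2 arrays held RNA of cells stably transfected with the same vector carrying the MTf hairpin, labelled B1 and B2 and called siRNA arrays 1 and 2 here. Whether B1 and B2 are separate clones or cultures is not labelled. The p-values therefore reflect the spread of these arrays alone, possibly a technical one, and the scrambled array has no replicate.

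Guidance molecules were named for steering growing axons, and the neural crest cells from which melanocytes descend migrate by the same cues. Semaphorins are ligands that share a sema domain. Secreted class 3 semaphorins bind neuropilins, which signal through plexins, whereas most membrane-bound semaphorins bind plexins directly. Ephrins are ligands held on the cell surface, by a lipid anchor in the A class and by a transmembrane segment in the B class, and they activate Eph receptor tyrosine kinases on the neighbouring cell. SLIT proteins are secreted ligands of the ROBO receptors.

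A signal here is the deposited linear intensity of a probe set. Differences are siRNA minus scrambled on the log2(signal + 47.4) scale, on which changes of dim probe sets come out too small, and are given with the standard error (SE) of the limma fit and its Benjamini-Hochberg adjusted p over the 27306 probe sets that passed a filter at the median mean signal. Bacterial trp control probe sets read up to 97.2. Where a probe set lay below that level on 1 side, its change is given as a lower bound, from the geometric mean of the siRNA signals with all signals raised to at least 97.2. The brightest probe set of a gene is the one with the highest mean signal, which set what is described and is not a level of the gene.

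The arrays had median signals of 161, 174 and 199.5, in the order scrambled, siRNA array 1, siRNA array 2, and the median probe set that passed the filter was 0.11 higher on the siRNA arrays. The targeted gene, MELTF, had 4 probe sets that disagreed. The brightest had 32608 in the control, and 18968 and 18974 with the hairpin (limma adjusted p = 0.0699), another 8284 against 10567 and 11199 (adjusted p = 0.318). All 11 measured melanocyte and melanoma markers passed the filter, among them PMEL (63858 against 60939.7 and 65576) and MLANA (61769 against 63275 and 69169). Others moved: TYRP1 fell from 53204 to 5022 and 12370.0 (limma adjusted p = 0.0374), EDNRB rose from 4471 to 10695 and 14894 (0.0383), and a TYR probe set rose from 10796 to 24678 and 22086 (0.0383). Among markers of other cell types, the leukocyte gene PTPRC read at most 94.7, the epithelial gene CDH1 68.5 and the endothelial gene CDH5 15.0, whereas the endothelial genes PECAM1 and VWF reached 459.5 and 207. Summed over the brightest probe sets of genes past the filter, 3 of 8 fibroblast markers read 1526.5 against 5478 and 5707, and 3 of 9 epithelial markers 16278 against 8257 and 7102. The markers within each of these lists did not all share its shift. LUM rose from 599 to 4850.0 and 4841, whereas COL1A1 read 672 against 488 and 565, and DCN 256 against 139.9 and 301. ESRP1 fell from 14486 to 5567 and 4656 and KRT8 from 483 to 208 and 297, whereas KRT18 read 1308 against 2483 and 2148.5. The lone leukocyte marker past the filter read 1130.1 against 478 and 385, and the lone endothelial one 228 against 285 and 459.5. At least 1 array was above 97.2 for 7 of the fibroblast, 4 of the epithelial, 3 of 5 leukocyte and 3 of 6 endothelial markers. Their part in the results below was not tested.

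To show the start regions of members that lay lower or higher on both siRNA arrays, the 250 bases upstream of the RefSeq start (GRCh38.p14) are given 5′ to 3′ for SLIT2 and SEMA3C, which were lower, and for EFNA4 and PLXNA2, which were higher. RefSeq lists a pair of starts for SEMA3C. Capitals mark the GC box letters GGGCGG on either strand.
SLIT2, chr4:20251655-20251904, plus strand: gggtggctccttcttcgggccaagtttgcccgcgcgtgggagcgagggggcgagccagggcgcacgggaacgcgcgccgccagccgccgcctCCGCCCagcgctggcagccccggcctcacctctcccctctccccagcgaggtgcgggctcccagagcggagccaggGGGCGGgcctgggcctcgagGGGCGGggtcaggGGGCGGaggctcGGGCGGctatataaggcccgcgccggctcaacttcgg
SEMA3C, chr7:80919052-80919301, minus strand: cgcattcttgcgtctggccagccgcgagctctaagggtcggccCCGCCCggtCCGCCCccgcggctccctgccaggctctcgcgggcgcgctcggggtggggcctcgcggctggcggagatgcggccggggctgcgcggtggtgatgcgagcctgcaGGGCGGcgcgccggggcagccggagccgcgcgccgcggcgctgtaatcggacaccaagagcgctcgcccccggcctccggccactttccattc
SEMA3C, chr7:80922390-80922639, minus strand: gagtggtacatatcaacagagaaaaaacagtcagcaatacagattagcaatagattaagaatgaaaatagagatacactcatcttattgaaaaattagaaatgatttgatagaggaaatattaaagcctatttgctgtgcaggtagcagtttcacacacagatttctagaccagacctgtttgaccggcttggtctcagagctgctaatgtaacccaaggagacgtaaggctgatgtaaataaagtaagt
EFNA4, chr1:155063490-155063739, plus strand: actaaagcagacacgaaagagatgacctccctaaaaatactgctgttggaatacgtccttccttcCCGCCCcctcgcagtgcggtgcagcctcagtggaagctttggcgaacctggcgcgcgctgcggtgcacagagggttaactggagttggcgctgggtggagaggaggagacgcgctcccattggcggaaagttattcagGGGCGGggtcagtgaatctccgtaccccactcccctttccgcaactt
PLXNA2, chr1:208244385-208244634, minus strand: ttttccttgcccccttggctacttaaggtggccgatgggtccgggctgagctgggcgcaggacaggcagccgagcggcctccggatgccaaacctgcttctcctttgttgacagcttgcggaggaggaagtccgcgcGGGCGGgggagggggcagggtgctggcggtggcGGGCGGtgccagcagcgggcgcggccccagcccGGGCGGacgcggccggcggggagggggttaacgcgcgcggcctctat
The SLIT2 window holds 5 GC boxes and PLXNA2 3. EFNA4 holds 2. The SEMA3C starts differ, with 3 GC boxes and 77.6% G+C in the first window printed and none and 36.4% in the other. Of the 36 named genes, EPHB2 included, 32 were in the promoter table, with 52 starts, some of them a few bases apart. Of those windows 38 (73.1%) held GGGCGG, against 42.6% of all 35116 windows of this length, and 28 of the 32 genes had such a window. Median G+C was 67.0% in member windows and 58.0% in all. The letters TATAAA were in 3 member windows (5.77%, against 10.7% of all), CACGTG in 3 (5.77%, against 6.34%), CATGTG in 4 (7.69%, against 9.42%) and TGACTCA in 0 (against 4.20%). CACGTG and CATGTG are letters bound by the melanocyte factor MITF. A match is a description of the letters, not a site.

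Of the 95 member probe sets, 59 passed the filter, from 25 genes. In the limma fit 2 of the 59 (3.39%) passed an adjusted p of 0.05, SEMA6A higher and SEMA3C lower, against 2.09% of all probe sets tested (1.19% higher and 0.905% lower). That share is near the background. At an unadjusted p under 0.05 there were 21 of 59, or 35.6%, against 20.2% of all. Of the 59, 10 passed the filter only through the group where they were higher (8 the siRNA arrays, 2 the scrambled array), so they had to differ, and no p is given for them. They hold 7 of the 21 and neither of the 2. Among the 49 that passed in both groups, 14 (28.6%) had an unadjusted p under 0.05, against 19.5% of all such probe sets. Without a test, 13 of the 95 (13.7%) differed from the control at least 2-fold on each siRNA array, 7 being higher and 6 lower, against 5.88% of all probe sets (3.68% higher and 2.19% lower). Those 13 belong to 9 genes, and probe sets of a gene measure the same RNA. They include an EPHA3 probe set that stayed below the control level of 97.2 on every array, and several others below it on a side. Neither the member count nor that over all probe sets required a signal above that level. Both differences of a probe set also share the lone scrambled array. Because the members were chosen with earlier results known, their shares beside those of all probe sets are descriptions. With 1 probe set per gene, 1 of the 25 genes passed (SEMA3C, lower, against 2.64% of all genes, 1.50% higher and 1.14% lower). An unadjusted limma p was under 0.05 for 11, against 22.9% of all genes. Of those 11, 4 passed the filter only through their higher group, so they had to differ. Among the 20 genes that passed in both groups there were 7 (35%), against 22.3% of all such genes. The 25, of which 5 passed the filter only through their higher group, had a median difference of 0.26, against 0.097 over all 12386 genes. With arrays centred these medians were 0.094 and -0.073, and with quantile normalization 0.14 and 0.021. With the filter at the 75th percentile the guidance genes' median was -0.080. Of these 25, 13 were higher on both siRNA arrays (46.7% of all genes were), 8 lower on both (32.5% of all genes were) and 4 mixed.

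**Figure D1:**
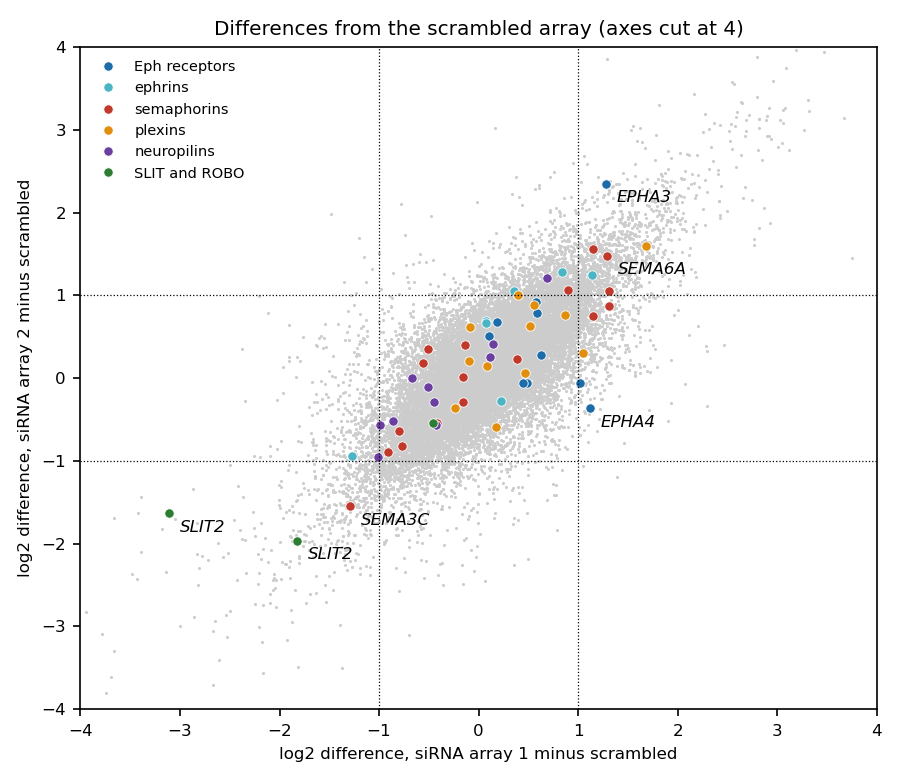
Each point is a probe set that passed the filter, with its log2 difference from the scrambled array on siRNA array 1 (x axis) and siRNA array 2 (y axis). Grey points are all 27306 probe sets, coloured points the 59 guidance gene probe sets by role, and dotted lines mark 2-fold; axes end at 4 and points beyond are not drawn. SLIT2 and SEMA3C lie in the lower left, EPHA3 and SEMA6A in the upper right, and the named EPHA4 probe set is higher on siRNA array 1 alone.

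Among the semaphorins, SEMA6A rose and SEMA3C fell, and the other class 3 ligands had values on both sides of 0. SEMA6A, a transmembrane semaphorin that binds class A plexins, has 5 probe sets. The one past the threshold had a control signal of 1536, and 3834 and 4368 with the MTf hairpin (log2 difference 1.39 ± 0.24, SE; limma adjusted p = 0.0397). Both siRNA arrays lay above the scrambled array, at 249.6% and 284% of its signal. A brighter one read 2087.5 against 5235 and 3864 (1.09 ± 0.26; adjusted p = 0.0811). The next read 1151 against 2189 and 2458 (adjusted p = 0.0925), and the dimmest of these 559 against 1293 and 972 (adjusted p = 0.146). All 4 were higher on both siRNA arrays. The fifth read at most 18.4 and gives no direction. Averaged over the 4, SEMA6A was 1.10 higher (limma adjusted p = 0.0370). This mean holds the called probe set, so it is not separate support.

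SEMA3C, a secreted ligand of both neuropilins, was lower in both of its probe sets. Past the threshold was the brighter one, with a control signal of 3124, and 1252 and 1039 with the MTf hairpin (log2 difference -1.42 ± 0.26, SE; limma adjusted p = 0.0483). The siRNA signals were 40.1% and 33.2% of the scrambled one. The other probe set read 665 against 361 and 409 (-0.72 ± 0.33; adjusted p = 0.270), also lower on both siRNA arrays. The mean of both, which again holds the called probe set, was -1.07 (adjusted p = 0.0452). The calls for SEMA3C and SEMA6A were lost when no filter was used, when it stood at the 75th percentile, with quantile normalization and without the trend on mean signal, at adjusted p of 0.0638 to 0.155. SEMA3C also missed the threshold with the median signal as pseudocount (0.0512).

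SEMA3A, the founding repulsive class 3 ligand, which binds neuropilin-1, was higher in all 3 of its probe sets. Its brightest read 388 against 1033 and 854 (log2 difference 1.18 ± 0.30, SE; limma adjusted p = 0.0917). A second read 75.6 against 225 and 315, at least 2.74-fold higher, and the dimmest 64.2 against 184 and 131, at least 1.60-fold. The brightest did not pass the threshold, although every siRNA signal lay above its scrambled signal.

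SEMA3D, another secreted class 3 ligand, had a pair of dim probe sets, both lower. Signals were 194 against 49.2 and 12.1, at least 2.00-fold lower, and 135.5 against 54.0 and 53.2, at least 1.39-fold lower. Neither passed the filter, so neither was tested. SEMA3A and SEMA3D lie side by side on chromosome 7, next to SEMA3E (12.7, 22.0 and 13.0 on the 3 arrays, below the control level throughout). Of these neighbours, the probe sets of SEMA3A were higher and those of SEMA3D lower on the siRNA arrays.

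SEMA5A, a transmembrane semaphorin with thrombospondin repeats, was lower on both siRNA arrays in all 3 probe sets. Its brightest read 1565 against 811 and 819 (log2 difference -0.90 ± 0.27, SE; limma adjusted p = 0.126). The others read 1155 against 854 and 781, and 1245.5 against 710.0 and 685 (adjusted p = 0.388 and 0.173). The 3 probe sets thus gave siRNA signals close together and below the scrambled ones, without passing the threshold.

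The other semaphorins gave no common direction. SEMA6D, a transmembrane ligand of plexin-A1, read 1654 against 1149 and 2116.5 in the brightest of 5, below the scrambled array on siRNA array 1 and above it on siRNA array 2 (log2 difference -0.080 ± 0.37, SE; limma adjusted p = 0.934). SEMA4B, a transmembrane class 4 ligand, read 672 against 894 and 794 (adjusted p = 0.608). SEMA3F, which prefers neuropilin-2, read 415 against 367 and 331 in the probe set that was tested (adjusted p = 0.774). Its other probe sets read at most 72.6. SEMA4D, the ligand of plexin-B1, read at most 50.8 except in a probe set at 146 on siRNA array 2. SEMA3B read at most 34.4, below the control level. The 7 semaphorin genes tested had a median difference of -0.080.

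**Figure D2:**
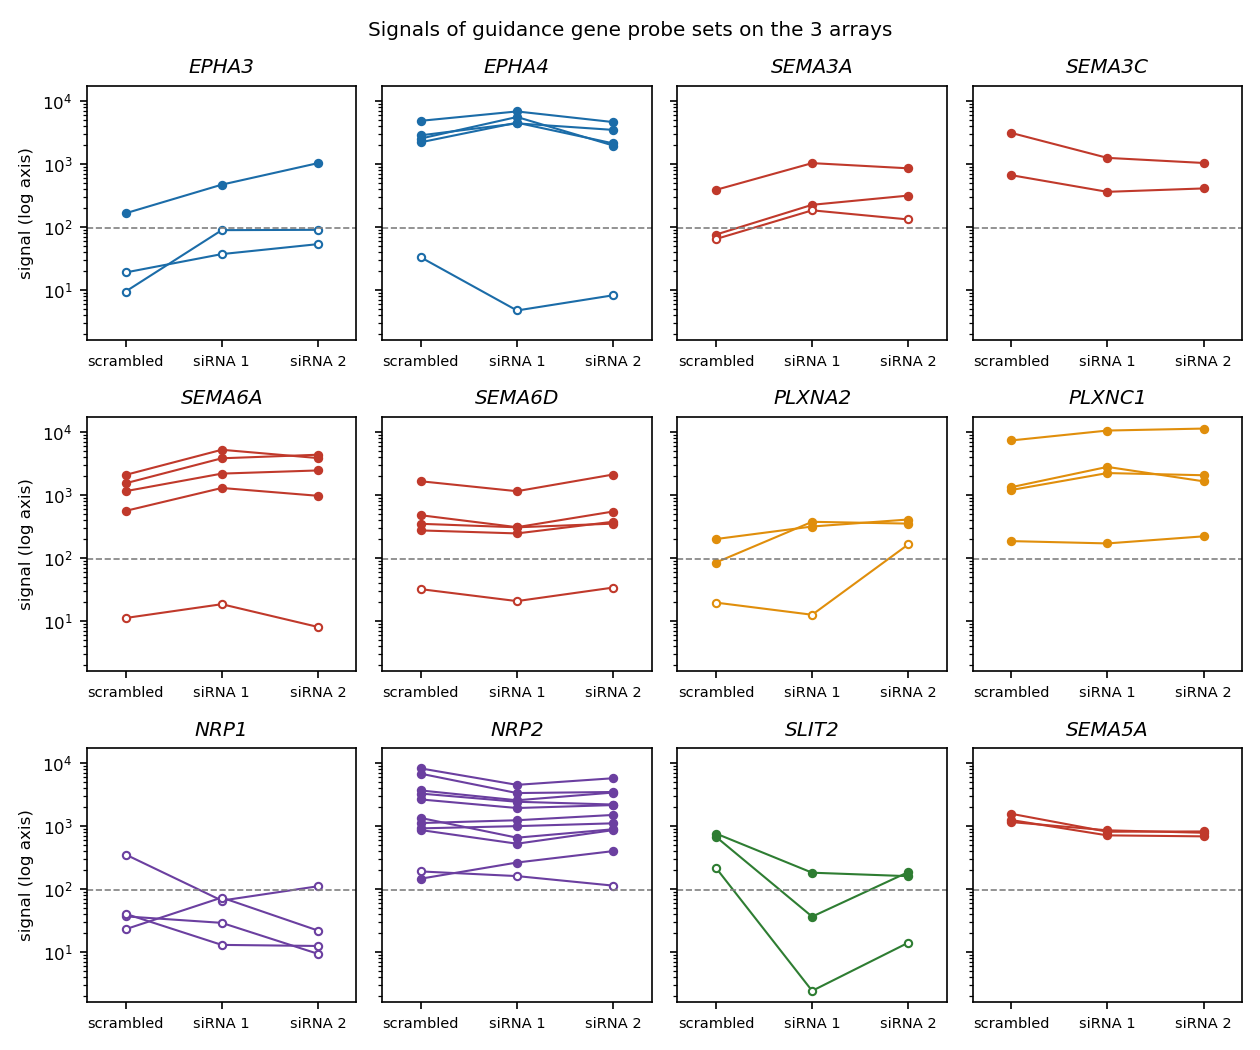
Signal (log axis) of every probe set of 12 guidance genes on the scrambled array and siRNA arrays 1 and 2, with lines joining the values of a probe set. Filled points passed the filter, open points did not, and the dashed line is the highest trp control signal, 97.2. The 4 bright SEMA6A probe sets are higher on both siRNA arrays, those of SEMA3C, SEMA5A and SLIT2 lower, and NRP2 goes both ways.

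The neuropilins, co-receptors of the class 3 semaphorins, gave values that depended on the probe set. NRP2 has 11, of which 10 passed the filter. Its brightest had 8230 in the control, and 4510.4 and 5744 with the MTf hairpin (log2 difference -0.69 ± 0.24, SE; limma adjusted p = 0.165). The next read 6780.0 against 3339.9 and 3473 (-0.98 ± 0.22; adjusted p = 0.0702), and passed only with arrays centred on their medians (adjusted p = 0.0307). Over the 11, 8 were lower on both siRNA arrays and 3 higher on both. Of those 3, one read 145.5 against 263 and 399 (log2 difference 0.95 ± 0.42, SE), another 1114.5 against 1235 and 1500 (adjusted p = 0.627). NRP2 is known to make membrane-bound and soluble forms, and which form each probe set reads was not tested. The mean over the 10 was -0.26.

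NRP1, the co-receptor for SEMA3A, rested on 1 probe set above the control level. It read 352 against 65.3 and 110, at least 3.40-fold lower on the siRNA arrays, and did not pass the filter. The other 3 read at most 72.9.

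Plexins, the signalling receptors, were mostly near or above the scrambled array. PLXNC1, the receptor of semaphorin 7A, read 7361 against 10578 and 11377 in the brightest of 4 (log2 difference 0.57 ± 0.20, SE; limma adjusted p = 0.168). A further one read 1200.4 against 2233 and 2061 (0.81 ± 0.25; adjusted p = 0.134), and another 1330.1 against 2797 and 1651 (adjusted p = 0.327). Those 3 were higher on both arrays, and the fourth read 185 against 170.1 and 220.4.

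PLXNA2, a receptor of SEMA6A, read 199.6 against 316 and 408 in one probe set (log2 difference 0.72 ± 0.38, SE; limma adjusted p = 0.348). A second read 84.6 against 375 and 351, at least 3.73-fold higher, and passed the filter only through the siRNA arrays. The siRNA signals of both probe sets lay above the scrambled ones, and the third read 19.5 against 12.5 and 164.

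PLXNA1, a partner of the neuropilins, disagreed between probe sets, at 1770.1 against 1494 and 1369 (limma adjusted p = 0.567) and at 549.9 against 740.4 and 1152 (adjusted p = 0.308). PLXNB2, a receptor of class 4 semaphorins, read 2270.3 against 2407 and 2513 (log2 difference 0.11 ± 0.24, SE; adjusted p = 0.842, and -0.056 with arrays centred). PLXND1, the direct receptor of SEMA3E, read 472 against 443 and 746.5 (adjusted p = 0.757). PLXNB1 read 160.5 against 155 and 77.8 in its brighter probe set and was not tested. No plexin probe set passed, 0 of the 12 tested by limma. An unadjusted p was under 0.05 for 3 of the 12, near the 20.2% of all probe sets. These 3 include the PLXNA2 probe set that passed the filter only through the siRNA arrays, so that it had to differ.

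**Figure D3:**
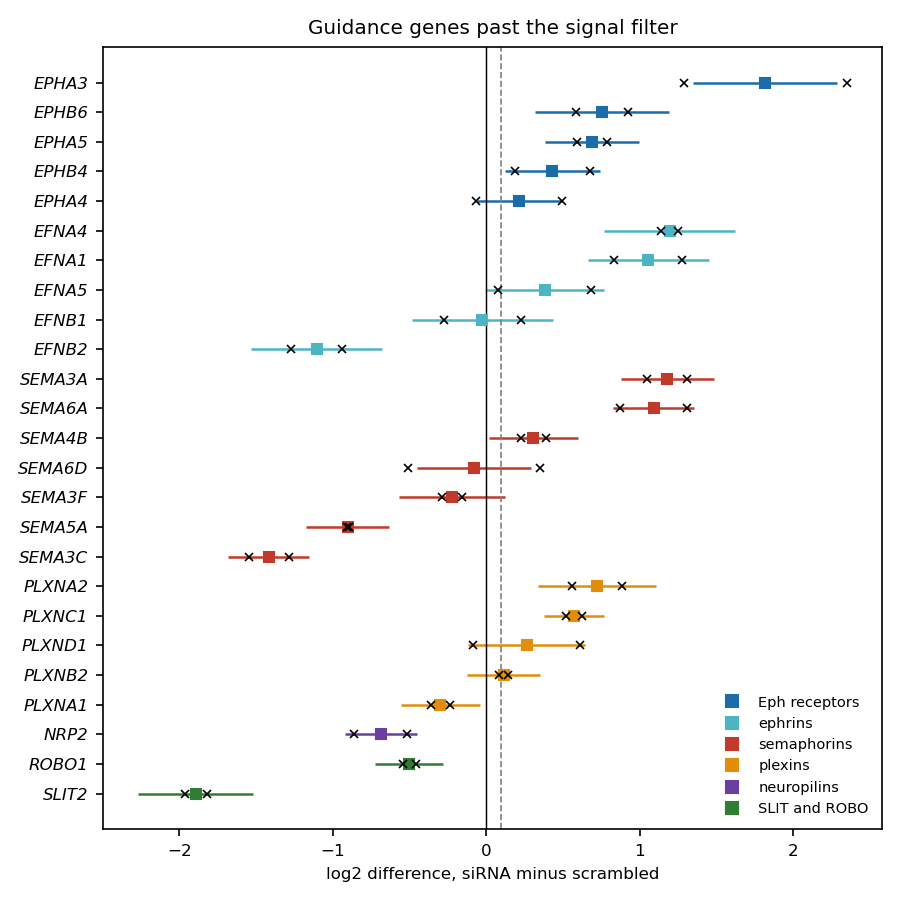
Log2 difference from the scrambled array for the 25 guidance genes that passed the filter, with the probe set of highest mean per gene. Squares and bars are the mean over the 2 siRNA arrays ± SE of the limma fit, crosses the 2 arrays, the solid line 0 and the dashed line the median of all genes, 0.097. SLIT2 (-1.89) and SEMA3C (-1.42) lie lowest and EPHA3 (1.82) highest.

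Among the ephrins, EFNA1 and EFNA4 lay higher on both siRNA arrays and EFNB2 lower. All 3 passed the filter only through the group where they were higher. EFNA4 read 94.3 against 265 and 289, at least 2.85-fold higher. EFNA1, a ligand of EPHA2, read 166 against 333 and 469 (log2 difference 1.06 ± 0.39, SE). These genes lie close together on chromosome 1, with EFNA3 between them, which read 61.9 against 28.2 and 22.3, below the control level. EFNA5 read 326 against 346 and 552 in the brightest of 4 (limma adjusted p = 0.640), and on siRNA array 1 that difference was -0.016 with arrays centred. Another read 210.2 against 282 and 486.5 (adjusted p = 0.409), and the dimmest, which was not tested, 114 against 112 and 119.

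EFNB2, the ligand of EPHB4 and a marker of arterial endothelium, read 386 against 132 and 179 (log2 difference -1.11 ± 0.43, SE). Its dimmer probe set read 165 against 93.0 and 24.1, at least 1.70-fold lower. All 4 siRNA signals lay below their scrambled ones. EFNB1 read 189 against 229.7 and 148 (limma adjusted p = 0.985). EFNB3, which was not tested, read 74.7 against 229.8 and 107, and 60.4 against 264 and 119. Of 7 ephrin probe sets tested by limma 0 passed (2.09% of all did). An unadjusted p was under 0.05 for 3, against 20.2% of all, and these are the EFNA1, EFNA4 and EFNB2 probe sets that passed the filter through 1 group.

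Of the Eph receptors, EPHA3, which binds A-class ephrins, differed most in the values. Of its probe sets the brightest had 165 in the control, and 469.8 and 1033 with the MTf hairpin (log2 difference 1.82 ± 0.47, SE), and passed the filter only through the siRNA arrays. The arrays differed from each other, at 285% and 627% of the scrambled signal. The other EPHA3 probe sets stayed below the control level, at 9.4 against 88.9 and 90.0, and at 18.9 against 37.0 and 53.3.

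EPHA4, which binds ephrins of both classes, differed between the siRNA arrays. Its brightest probe set read 4859 against 6849 and 4641 (log2 difference 0.21 ± 0.28, SE; limma adjusted p = 0.727). The other 3 bright ones read 2856 against 4423 and 3486, 2539 against 5587 and 1967, and 2216.5 against 4538.5 and 2127. The remaining one was dim, at most 32.9. On siRNA array 1 the 4 bright ones lay above the scrambled array, whereas on siRNA array 2 only 1 of them did, so that without siRNA array 1 the difference of the brightest turned to -0.066. Over the 59 tested member probe sets, the siRNA arrays differed from each other by a median of 0.34 on the log2 scale, against 0.25 over all probe sets.

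EPHA5, EPHB4 and EPHB6 were higher on both siRNA arrays in their brightest tested probe sets without passing. EPHA5 read 417 against 652.5 and 756 (log2 difference 0.69 ± 0.31, SE; limma adjusted p = 0.266). Its other tested probe set read 391 against 550.1 and 372.5, higher on siRNA array 1 and lower on siRNA array 2 (limma adjusted p = 0.825). EPHB4 read 907 against 1039.9 and 1476.5 (0.43 ± 0.31; adjusted p = 0.485). EPHB6, a member without kinase activity, read 128 against 215 and 285 (0.75 ± 0.44) and passed the filter only through the siRNA arrays. EPHA2 read 96.3 against 95.7 and 294, so that only siRNA array 2 stood above the control level, and EPHA7 read at most 99.0. The 5 Eph genes tested, EPHA3 and EPHB6 included, had a median difference of 0.69, and 0.52 and 0.50 with arrays centred and quantile normalized. Of 10 Eph probe sets tested by limma 0 passed (2.09% of all did), and 1, that of EPHA3, had an unadjusted p under 0.05, against 20.2% of all.

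SLIT2 and ROBO1, a ligand and its receptor, were both lower on the siRNA arrays. SLIT2 was lower in all 3 of its probe sets. They read 759.5 against 181 and 159.5 (log2 difference -1.89 ± 0.37, SE; limma adjusted p = 0.0540), 674 against 36.3 and 185.5, at least 5.02-fold lower, and 216 against 2.4 and 14.0, at least 2.23-fold lower. Every siRNA signal was at most 27.5% of its scrambled signal. With arrays centred the brightest passed (limma adjusted p = 0.00501), where 5.60% of all probe sets did. The next passed the filter only through the scrambled array. The SLIT2 mean over its tested probe sets, -2.13, includes it, so that the call of that mean (limma adjusted p = 0.0392) is no support. ROBO1 has 1 probe set, which read 5250.1 against 3802 and 3589.6 (log2 difference -0.50 ± 0.22, SE; adjusted p = 0.259). RNA of a whole culture was measured, so fewer cells carrying a transcript and less of it per cell cannot be told apart.

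Among 38 other guidance ligands and receptors, 17 passed the filter. Of these 17, 0 passed by limma, against 2.64% of all genes. An unadjusted p was under 0.05 for 4, near the 22.9% of all genes. Among them is a gene that passed the filter only through the siRNA arrays, so that it had to differ. The median difference, that gene included, was 0.43, against 0.097 over all genes. None is therefore named as changed. ROBO2, a second SLIT receptor, had the lowest value, at 1123 against 445.5 and 268 (log2 difference -1.57 ± 0.37, SE; adjusted p = 0.0785). The SLIT2 relatives SLIT1 and SLIT3 read 189 against 295.5 and 450.5, and 265.5 against 355 and 450.3 (adjusted p = 0.324 and 0.479). SEMA7A, the ligand of PLXNC1, read 257 against 356 and 298 (adjusted p = 0.718). These 4 genes, outside the rule for names, were chosen after their values were seen.

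Of 50 signal transducers, 38 passed the filter, 37 of them in both groups. Of these 37, 1 rose and 0 fell by limma in the brightest probe set. Over all genes 327 of 12386 (2.64%) were called in either direction. That includes 55 that passed the filter through 1 group only, and 11626 genes passed in both groups. An unadjusted p was under 0.05 for 8 of the 37 (21.6%), near the 22.3% of all genes that passed in both groups. DPYSL2, a collapsin response mediator that relays semaphorin 3A signals, read 892 against 2655 and 4391 (log2 difference 1.88 ± 0.33, SE; adjusted p = 0.0424). RRAS, a small GTPase on which plexins act, read 7.3 against 408 and 417, at least 4.25-fold higher. It passed the filter only through the siRNA arrays, so that its call (limma adjusted p = 0.0277) is no support. SRGAP1, a GTPase-activating protein that binds ROBO, fell in one probe set, at 2266.5 against 833 and 643 (log2 difference -1.57 ± 0.29, SE; adjusted p = 0.0477). Its brightest read 5433 against 3693 and 2764 (-0.76 ± 0.26; adjusted p = 0.164), and both lay lower on each siRNA array. The list's median was 0.092, near that of all genes.

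**Figure D4:**
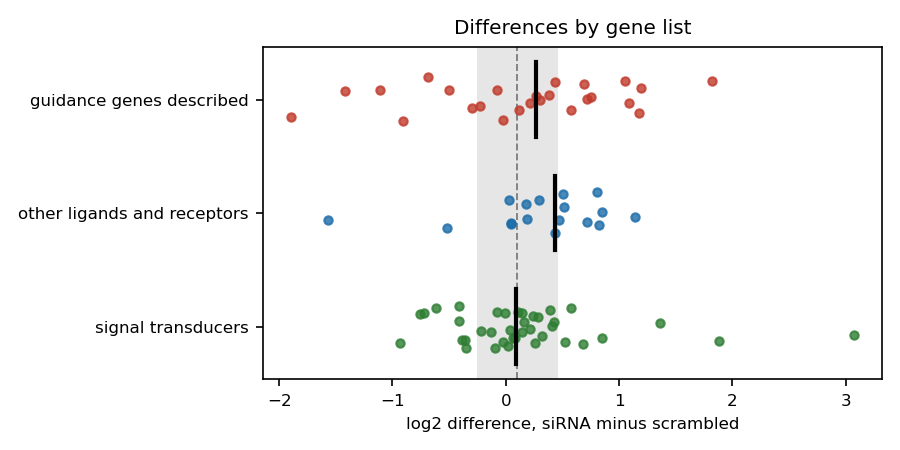
Log2 difference from the scrambled array (x axis) for each gene that passed the filter in 3 lists, with the probe set of highest mean per gene and points spread vertically for visibility. Black bars are list medians (0.26, 0.43 and 0.092 from top to bottom), the dashed line is the median of all genes (0.097) and the grey band their middle quartiles. The listed guidance genes reach from -1.89 (SLIT2) to 1.82 (EPHA3).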

How the data were processed

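RNA of 1 scrambled and 2 MTf siRNA samples of SK-Mel-28 was hybridised to single-colour arrays. The values are linear probe set intensities as deposited by the authors, made with GCOS 1.3 per the submitters' processing notes. The mean after trimming 2% at each end was near 1000 on each array (1000.14, 1000.12 and 1000.13). The sources used here give no other settings, and there were 0 value columns of other samples. After 62 control probe sets were left out, log2(signal + 47.4), where 47.4 is the 25th percentile of all signals, was fitted with limma 3.58.1 in R 4.3.3 (lmFit, eBayes with trend). Probe sets with a mean above 7.74 were kept, and p-values were adjusted over them. The fit has 1 residual degree of freedom, to which moderation added 6.36, and assumes that the scrambled array varies like the siRNA arrays. The number of arrays limits the precision. Symbols come from the platform annotation, which named 1 gene for 41091 probe sets, several for 1801 and none for 11721, checked against GRCh38.p14 by Entrez identifier. The fit was tested on simulated data.

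Member genes described in full were those with a probe set past an adjusted p of 0.05, those at least 2-fold away on both siRNA arrays with a brighter side above 97.2, and the 5 with the highest scrambled signals. The rest are given with their ranges or brightest probe sets. Other pathway genes were to be named only where they passed. Members and lists were chosen with earlier results of these data known.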

Additional observations from a re-analysis of the deposited data

How the results depend on the processing

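The counts of called guidance probe sets, 1 higher and 1 lower, fell to 0 and 0 by limma without the filter, with the 75th percentile filter, with quantile normalization and without the trend. With the median signal as pseudocount they were 1 and 0, and with arrays centred 3 and 4. Across all probe sets, limma called 571, and 1 without the filter, 9 with the 75th percentile filter, 357 with quantile normalization, 1 without the trend, 406 with the median as pseudocount, and 594 higher and 934 lower (5.60%) with arrays centred. The count at least 2-fold higher on both siRNA arrays was 7, and 2 with the median as pseudocount; on a single siRNA array, leaving out the other, it was 15 to 16. The 2-fold lower count ranged from 7 to 8 on a single array. A single array is a looser rule than both. Shares over all probe sets for these 2-fold counts are not given here, so the counts describe the members only. The median of the guidance genes, 0.26, was -0.080 with the 75th percentile filter, 0.094 with arrays centred and 0.14 with quantile normalization, and 0.19 to 0.35 on a single array. Of the other pathway genes, the 2 called higher (DPYSL2 and RRAS) were 1 with a pseudocount of 16, with the median as pseudocount and with quantile normalization, and 0 without the filter, with the 75th percentile filter and without the trend; 1 was called lower with arrays centred. Over the 59 tested guidance probe sets, 549 of 584 values kept their direction and their side of the threshold; 9 calls of SEMA3C and SEMA6A were lost, 7 values of 6 probe sets newly passed (those of EPHA3, PLXNA2 and the dimmer SLIT2 had passed the filter through 1 group only) and 19 of 14 probe sets turned sign, none of those 14 called. By scaling, SEMA6D (scrambled signal 274) turned to -0.037 with arrays centred and -0.059 with quantile normalization, PLXNC1 (185) to -0.12 and -0.12, PLXNB2 (2270.3) to -0.056 with arrays centred and EPHA5 (391) to -0.027 with quantile normalization. PLXNA1 turned to 0.22 as the mean of its probe sets. On a single siRNA array the range was -0.066 to 0.49, -0.36 to 1.12 and -0.058 to 1.02 for EPHA4 (4859, 2539 and 2216.5), -0.064 to 0.45 for EPHA5 (391) and -0.28 to 0.23 for EFNB1. It was -0.51 to 0.35, -0.56 to 0.18, -0.16 to 0.0084 and -0.13 to 0.40 for SEMA6D (1654, 477, 349 and 274). For PLXNC1 (185) it was -0.096 to 0.20, and for PLXND1 (472 and 298) -0.085 to 0.61 and -0.59 to 0.17. The cause of these shifts was not tested. Signal near background limits the dim members. No paired analysis was possible because there was 1 scrambled array and the labels give no pairs.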
